A study of Homo sapiens with 6 samples.

Results

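FOXA1, HOXB13 and GATA2 encode 3 transcription factors of prostate cells, and the H3K4me2 regions called around these genes are described here. H3K4me2 is the dimethylated form of lysine 4 of histone H3 and was profiled by sequencing of immunoprecipitated chromatin (ChIP-seq). The members are all called regions that overlap a window drawn around each gene in hg19, namely chr14:38030000-38100000 for FOXA1, chr17:46790000-46830000 for HOXB13 and chr3:128180000-128230000 for GATA2. The rule used position and no measured value. It found 75 of the 355320 regions in 3 lists, of which 24 were at FOXA1, 33 at HOXB13 and 18 at GATA2. Merged across lists wherever they overlapped, they formed 33 distinct regions of 151839 in the genome, with 14 at FOXA1, 9 at HOXB13 and 10 at GATA2.

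The cells were LNCaP, an androgen-responsive human prostate cancer line, kept for 3 days in medium with 5% charcoal-stripped serum, which is depleted of steroid hormones. The 6 samples form 3 groups of 2 replicates: a vehicle control without GSK, GSK for 4 h and GSK for 24 h. GSK stands for GSK2879552, an inhibitor of the histone demethylase LSD1 (KDM1A). The treatment label of both GSK groups also names the androgen DHT, whereas the treatment protocol names the inhibitor alone, so an androgen difference and an inhibitor difference cannot be told apart in these comparisons. The series' design text says that both replicates of a group went into 1 region list, although each list is filed under the first replicate. The lists therefore carry no replicate error, no test between groups was possible, and the intervals given for single values are 95% intervals of counting error only.

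FOXA1 is a forkhead protein and a pioneer factor, which can bind DNA wrapped in nucleosomes and make it accessible to other factors. GATA2 is a zinc finger protein that binds enhancers in prostate and blood cells. HOXB13 is a homeodomain protein that marks the prostate lineage. H3K4me2 is found at promoters and enhancers, and LSD1 removes methyl groups from mono- and dimethylated lysine 4.

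The DNA just before the start sites of FOXA1 and GATA2 is shown because CpG-rich promoters usually carry H3K4 methylation. The RefSeq promoter sequences of GRCh38.p14 had entries for 2 of the 3 genes. Each line gives the 250 bases before a start site, 5′ to 3′ on the minus strand, with CpG dinucleotides in capitals. The FOXA1 sequence is chr14:37595250-37595499, the first GATA2 sequence is chr3:128493202-128493451 and the second, from another start site, is chr3:128488531-128488780. These GRCh38 positions cannot be set beside the hg19 positions of the regions.
FOXA1: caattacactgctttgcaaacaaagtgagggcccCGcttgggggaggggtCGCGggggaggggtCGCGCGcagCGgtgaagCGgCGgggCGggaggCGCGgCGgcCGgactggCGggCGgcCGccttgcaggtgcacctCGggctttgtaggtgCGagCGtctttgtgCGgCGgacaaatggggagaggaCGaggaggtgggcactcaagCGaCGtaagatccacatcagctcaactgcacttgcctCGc
GATA2, first start: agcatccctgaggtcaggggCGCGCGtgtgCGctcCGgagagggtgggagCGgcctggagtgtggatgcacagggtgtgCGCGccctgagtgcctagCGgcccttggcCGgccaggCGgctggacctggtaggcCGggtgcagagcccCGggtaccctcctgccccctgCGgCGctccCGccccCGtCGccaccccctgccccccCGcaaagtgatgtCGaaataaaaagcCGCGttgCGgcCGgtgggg
GATA2, second start: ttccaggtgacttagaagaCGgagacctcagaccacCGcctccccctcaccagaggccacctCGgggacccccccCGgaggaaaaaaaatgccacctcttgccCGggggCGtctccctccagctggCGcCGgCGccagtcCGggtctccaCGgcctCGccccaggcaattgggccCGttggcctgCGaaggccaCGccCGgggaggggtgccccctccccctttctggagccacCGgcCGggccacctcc

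The FOXA1 sequence held 26 CpG dinucleotides and was 67.2% G or C. The GATA2 sequences held 24 and 18 CpG dinucleotides and were 72.8% and 71.2% G or C. All 3 were richer in CpG than the median of 11 over 35116 start sites of 27305 genes. By CpG count they stood at percentile 82.3 (FOXA1), 78.4 (first GATA2 start) and 65.4 (second GATA2 start), so the last was only moderately rich. A search on both strands for the forkhead letters TGTTTGC found 1 match, in the FOXA1 sequence, where it reads GCAAACA on the printed strand at bases 16 to 22, which lie 235 to 229 bases before the start. That motif is present in 3.23% of all windows of this length. The other letters searched, TGTTTAC for forkhead factors (2.98% of windows), AGATAA (9.17%) and TGATAA (6.66%) for GATA factors, and CCAATAAA (0.863%) and TTTTATTG (1.23%) for HOXB13, were not in these 3 windows. The GATA motifs share the letters GATAA, and a match or its absence describes these bases only. In the RefSeq order of gene starts GATA2 is followed at higher coordinates by its antisense gene GATA2-AS1. HOXB13 stands next to MIR3185, with PRAC1 and PRAC2 beyond it, and FOXA1 stands between the protein-coding genes MIPOL1 and TTC6. The position of each region relative to exons, introns and start sites was not analysed here.

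Each region was described by 4 values. The fold enrichment is the deposited ratio of the summit to its background. The height is the number of fragments over the summit divided by the genome-wide mean of the same list, and the tag count is the number of reads in the 10 kb around the summit, both recovered from the deposited values. The recovered tag count cannot fall below the genome-wide mean, which is 94.3 tags in 10 kb in vehicle, 101 in GSK 4 h and 89.8 in GSK 24 h. Every member lay above this floor, at 1.41 times the mean or more. The −log10 q-value measures how far the summit stands above its background. Because the fold divides by the local 10 kb, signal spread over a cluster lowers it, whereas the height does not depend on neighbouring signal. Genome-wide depth was 9.43 tags per kb in vehicle, 10.1 in GSK 4 h and 8.98 in GSK 24 h, with 99997, 128134 and 127189 regions on the main chromosomes. Fragment lengths were 221, 186 and 219 bp, and both a summit's fragment count and the genome-wide mean that the height divides by scale with them.

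The FOXA1 and GATA2 loci carried their highest summits in vehicle, and those summits were lower in both GSK lists. The summits at HOXB13 were at about the same height or higher. Ranked by height within each list, only the tallest FOXA1 summit was lower in both GSK lists. It stood at percentile 96.3 in vehicle, 92.9 in GSK 4 h and 92.4 in GSK 24 h. The tallest HOXB13 summit stood at 91.5, 98.6 and 99.2. The tallest GATA2 summit, wherever it lay, stood higher in GSK 4 h (99.3) and GSK 24 h (99.6) than in vehicle. In the region of the tallest vehicle GATA2 summit the GSK percentiles were 97.1 and 98.9, on either side of vehicle. The vehicle list held 9 regions at FOXA1, 11 at HOXB13 and 5 at GATA2. GSK 4 h held 8, 11 and 7, and GSK 24 h held 7, 11 and 6. At FOXA1 the regions covered 5061 bp in vehicle, 4076 bp in GSK 4 h and 3531 bp in GSK 24 h. At HOXB13 they covered 6684, 7775 and 7225 bp, which is 16.7%, 19.4% and 18.1% of a window that was the most densely covered of the 3. At GATA2 they covered 3278, 3177 and 3010 bp, which are ratios to vehicle of 0.969 and 0.918. Among regions with a −log10 q-value of at least 10 these ratios were 0.619 and 0.564, and the GATA2 counts were 5, 3 and 3 in place of 5, 7 and 6. The longest single region was 1205, 1080 and 1029 bp at FOXA1, 1667, 1478 and 1737 bp at HOXB13, and 982, 1040 and 1065 bp at GATA2. The regions of GATA2 lay within 11.4 to 11.9 kb in each list, those of HOXB13 within 31.8 to 32.0 kb, and those of FOXA1 over 35.2 to 49.7 kb.

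**Figure D1:**
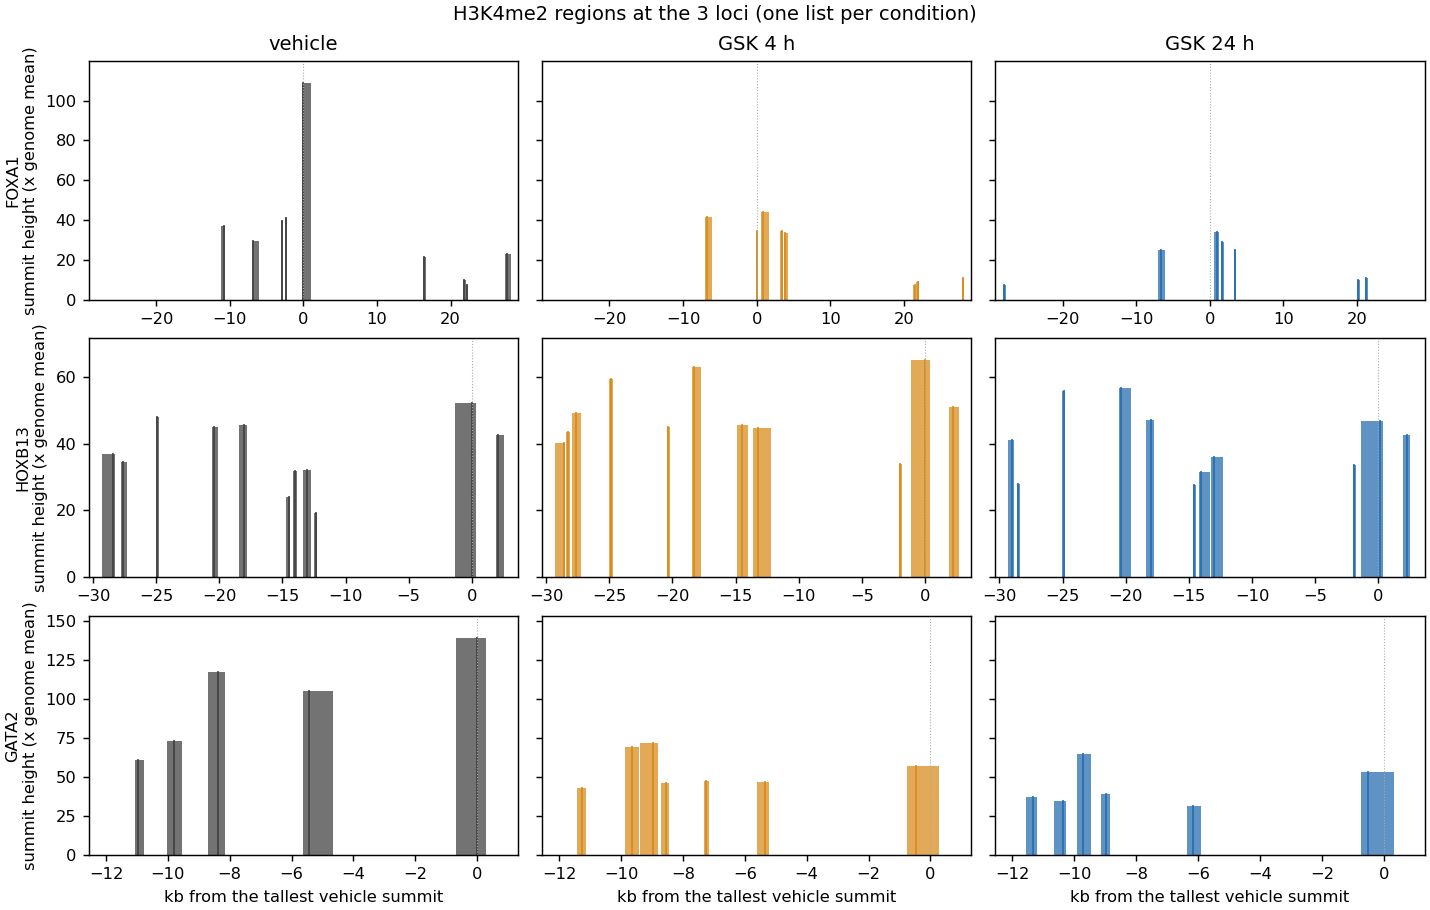
Regions at each locus (rows) in each list (columns), with position in kb from the tallest vehicle summit of that locus on the horizontal axis and summit height, as a multiple of the genome-wide mean, on the vertical axis. Each block is 1 region with its summit as a thin line, and the tallest vehicle blocks at FOXA1 (109) and GATA2 (139) have no counterpart of that height in the GSK columns.

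The HOXB13 regions were largely the same in the 3 lists and the FOXA1 regions were not. Of the 25 vehicle regions, 19 (76.0%) overlapped a GSK 4 h region, against 84.3% of all vehicle regions in the genome. For GSK 24 h the count was 14 of 25 (56.0%), against 86.0% in the genome. By locus, 11 of 11 HOXB13 regions, 4 of 9 FOXA1 regions and 4 of 5 GATA2 regions of vehicle overlapped GSK 4 h. The counts for GSK 24 h were 10 of 11, 2 of 9 and 2 of 5. Counted from the other side, 19 of 26 GSK 4 h regions overlapped vehicle (73.1%, against 67.0% in the genome), as did 14 of 24 GSK 24 h regions (58.3%, against 68.0%). By locus these were 5 of 8, 10 of 11 and 4 of 7 in GSK 4 h and 2 of 7, 10 of 11 and 2 of 6 in GSK 24 h, for FOXA1, HOXB13 and GATA2 in turn. In GSK 24 h the counts at FOXA1 and GATA2 were thus low from both sides and the count at HOXB13 was high.

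Of the 33 merged regions, 11 (33.3%) were in all 3 lists, against 47.9% of merged regions in the genome, and 6 (18.2%) were in vehicle only, against 5.45%. HOXB13 had 7 of its 9 in all 3 lists and none in vehicle only. FOXA1 had 2 of 14 in all 3 lists and 5 in vehicle only, and GATA2 had 2 of 10 and 1. Absence from a list means that no summit passed the caller's threshold, not that the mark was absent.

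The tallest H3K4me2 summit at FOXA1 lay in the vehicle region chr14:38063824-38065028, with its summit at 38064021. Its height was 109 (95.2 to 124) from 227 fragments, its fold enrichment 5.91 and its −log10 q 94.2. The tallest GSK 4 h region, chr14:38064590-38065669, had a height of 44.1 (35.1 to 54.7) from 83 fragments, and the tallest GSK 24 h region, chr14:38064640-38065322, had a height of 34.1 (26.4 to 43.3) from 67. The heights in the GSK lists were thus 0.405 (0.311 to 0.523) and 0.313 (0.235 to 0.413) of the vehicle value. The GSK summits lay 919 and 936 bp from the vehicle summit. A second GSK 4 h region, chr14:38063950-38064194, had its summit 90 bp from the vehicle summit, with a height of 34.5. GSK 4 h was thus lower at the vehicle summit itself as well, while GSK 24 h had no called region at that point.

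The 10 kb around the tallest summit of each list differed less than the summit height. It held 1699 tags in vehicle, 1661 in GSK 4 h and 1052 in GSK 24 h. The GSK windows were centred 919 and 936 bp from the vehicle summit. Relative to depth, the ratios to vehicle were 0.911 (0.851 to 0.976) and 0.650 (0.602 to 0.703). In GSK 4 h the tags around this summit were thus close to the vehicle number although the summit was well under its vehicle height. In GSK 24 h both were lower. Over the 4 FOXA1 regions held by both vehicle and GSK 4 h, the tag ratio ran from 0.639 to 0.911, with 3 of 4 intervals below 1. These ratios stood at percentiles 4.59 to 18.2 among all regions held by both lists.

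Elsewhere in the FOXA1 window, 5 vehicle regions were absent from both GSK lists. Among them were chr14:38061486-38061762 (height 40.8) and chr14:38060946-38061230 (39.3). These 2 rose little above their surroundings, with folds of 2.29 and 2.26 and −log10 q-values of 9.41 and 8.79. Another was chr14:38052789-38053368, which had a height of 36.9, a fold of 7.51 and a −log10 q-value of 40.4. It stood well apart, with the nearest region 3580 bp away in GSK 4 h and 3559 bp away in GSK 24 h. The region with the highest fold enrichment of the locus, chr14:38080217-38080620, was also in vehicle only, with a fold of 10.1 and a height of 21.6. The fifth, chr14:38086156-38086426, was small (7.20). These were the 5 vehicle regions of FOXA1 without a partner in GSK 4 h.

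The region chr14:38056928-38057985 was the one at FOXA1 besides the main one that all 3 lists held. Its height was 29.3 in vehicle, 41.4 in GSK 4 h and 24.9 in GSK 24 h. The ratio to vehicle was 1.42 (1.0 to 2.01) in GSK 4 h and 0.852 (0.573 to 1.26) in GSK 24 h, with the bounds of both at or across 1. Its 10 kb held 863, 762 and 548 tags. Regions in both GSK lists but not in vehicle were chr14:38067265-38067578, with heights of 34.5 and 24.9, and the small chr14:38085154-38085568, with heights of 7.44 and 10.7. The GSK lists thus had a called region 2236 bp past the end of the main vehicle region, where vehicle had none.

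GATA2 had the highest summit of the 3 loci in each list, although in the GSK lists its interval overlapped that of HOXB13. In vehicle it lay in chr3:128216129-128217078, with its summit at 128216802, a height of 139 (124 to 156) from 290 fragments, a fold of 11.2 and a −log10 q-value of 192. In the same merged region, chr3:128216043-128217123, the height was 56.9 in GSK 4 h and 53.4 in GSK 24 h, from 107 and 105 fragments. These are 0.409 (0.324 to 0.512) and 0.384 (0.304 to 0.481) of vehicle. The GSK summits lay 474 and 494 bp to the lower-coordinate side, near each other and away from the vehicle summit. The 10 kb around each list's own summit held 1133, 1012 and 660 tags, with ratios relative to depth of 0.832 (0.764 to 0.907) and 0.612 (0.555 to 0.674).

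The other tall vehicle regions of GATA2 lay in a cluster some kb away, with 10-kb tag counts that were among the highest of the 3 loci. The region chr3:128208091-128208650 had a height of 117 in vehicle and 46.2 in GSK 4 h, a ratio of 0.395 (0.305 to 0.506). The region chr3:128211173-128212154 had heights of 105 and 46.8, a ratio of 0.445 (0.343 to 0.572). Neither was in GSK 24 h, whose nearest regions lay 132 and 284 bp away with heights of 38.7 and 31.5. In contrast, chr3:128206768-128207369 had heights of 72.9, 69.1 and 64.6, with ratios of 0.947 and 0.886 whose intervals hold 1. Among matched GATA2 regions, the 3 that stood over 100 in vehicle were thus lower in the GSK lists that held them, and the one at 72.9 was within counting error.

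The tallest GATA2 regions of the GSK lists were therefore elsewhere than in vehicle. In GSK 4 h it was chr3:128207428-128207988, with a height of 71.7 (60.1 to 84.9), and in GSK 24 h it was chr3:128206897-128207329, with 64.6 (53.9 to 76.9). Taken as the tallest summit of the locus wherever it lay, the ratio to vehicle was 0.516 (0.417 to 0.634) in GSK 4 h and 0.464 (0.374 to 0.574) in GSK 24 h. The GSK 4 h region lay 109 bp from the nearest vehicle region and had no overlap with it. The highest 10-kb tag count of the cluster was 2898 in vehicle, 2948 in GSK 4 h and 1570 in GSK 24 h, so the ratios relative to depth were 0.948 (0.900 to 0.998) and 0.569 (0.535 to 0.605). By this highest count, chosen after seeing the data, GSK 4 h held nearly as many tags as vehicle. Over the 4 GATA2 regions held by both vehicle and GSK 4 h, the tag ratio ran from 0.832 to 0.982, with 3 of 4 intervals below 1.

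At HOXB13 the tallest vehicle summit was lower than at the other loci, and nearly all vehicle regions had a partner in each GSK list. The median vehicle height was 36.9 at HOXB13, against 29.3 at FOXA1 and 105 at GATA2. The tallest vehicle region, chr17:46823735-46825401, had a height of 52.3 (42.9 to 63.1) from 109 fragments. In the same merged region, chr17:46823654-46825439, the height was 65.4 (54.3 to 78.0) in GSK 4 h, at the same summit base, and 46.8 in GSK 24 h. The ratios were 1.25 (0.958 to 1.63) and 0.895 (0.670 to 1.19), both with 1 inside the interval. The tallest GSK 24 h summit was at chr17:46804492-46805421, with a height of 57.0 (46.9 to 68.5). Taken wherever it lay, the tallest summit had ratios of 1.25 (0.958 to 1.63) and 1.09 (0.829 to 1.43), so no difference was detectable at this depth.

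Over the 8 HOXB13 regions matched between vehicle and GSK 4 h, the height ratio ran from 1.0 to 1.43, and 3 of 8 intervals lay above 1. With the fragment count divided by tags per kb, the ratios of these 8 regions in GSK 4 h ran from 0.843 to 1.20. That scale makes no allowance for the shorter fragments of GSK 4 h and so lowers its values. On it the ratio was under 1 at chr17:46804483-46805421 (0.843, height ratio 1.0) and chr17:46795704-46796904 (0.993, height ratio 1.18). At these regions the direction depends on the scaling, and at the others the ratio stayed above 1. In GSK 24 h the 7 matched regions had height ratios of 0.895 to 1.26. The region chr17:46799963-46800284 had heights of 48.0, 59.5 and 56.0, and chr17:46806578-46807271 had 45.6, 63.2 and 47.3. The region chr17:46826912-46827703 had 42.7, 51.0 and 42.7. GSK 4 h had the highest value of the 3 lists at each of these. The ratio of GSK 4 h to vehicle was 1.24 (0.939 to 1.64), 1.39 (1.05 to 1.84) and 1.19 (0.886 to 1.61) in turn, so the first and last were within counting error. At chr17:46804483-46805421 the heights were 45.1, 45.2 and 57.0, so that GSK 24 h had the highest value there and GSK 4 h was level with vehicle. The ratio of GSK 24 h to vehicle there was 1.26 (0.952 to 1.68), within counting error.

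The tags around HOXB13 differed between the GSK lists. In the 10 kb around the summit of chr17:46799963-46800284, the highest count of the locus, there were 1977 tags in vehicle, 2803 in GSK 4 h and 1893 in GSK 24 h. Relative to depth the ratio was 1.32 (1.25 to 1.40) in GSK 4 h and 1.01 (0.944 to 1.07) in GSK 24 h. Around each list's own summit in the region of the tallest vehicle summit there were 1286, 1719 and 1263 tags. The ratios were 1.25 (1.16 to 1.34) and 1.03 (0.954 to 1.12). At all 8 matched regions of GSK 4 h the ratio was above 1, from 1.23 to 1.89, and all 8 intervals lay above 1. The value of 1.89 compares windows whose centres lie 1463 bp apart. In GSK 24 h the 7 ratios ran from 0.937 to 1.07 and no interval excluded 1. Neighbouring windows share tags, so these 8 values are not independent of each other.

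**Figure D2:**
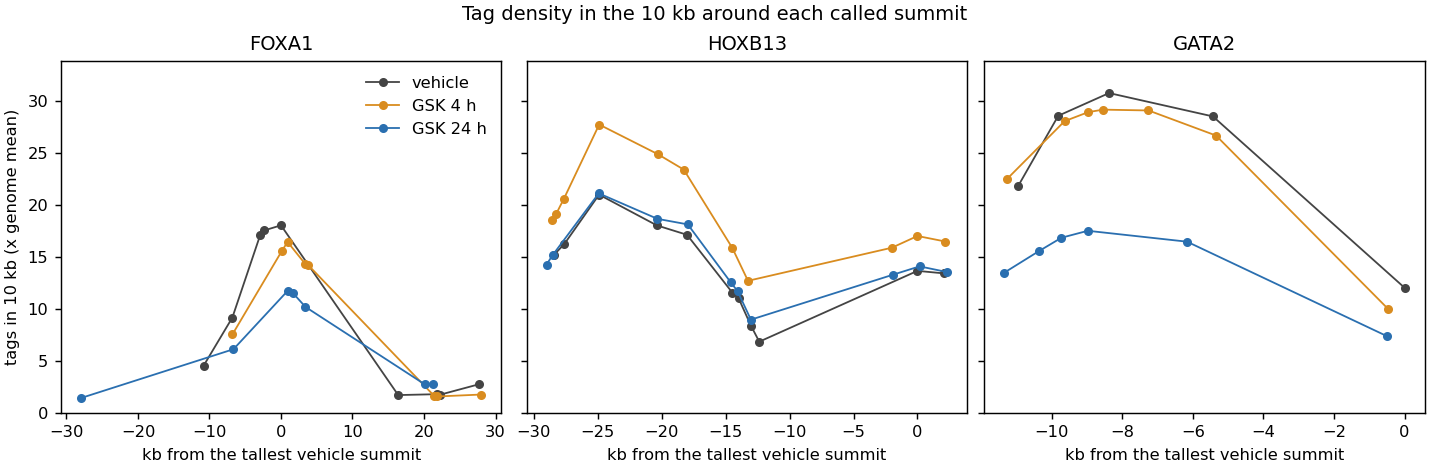
Tags in the 10 kb around each called summit, as a multiple of the genome-wide mean (vertical axis), against the summit's position in kb from the tallest vehicle summit of the locus (horizontal axis), with 1 point per region and 1 line per list. GSK 4 h lies above the other lists along HOXB13 (up to 27.7 against 21.0 in vehicle and 21.1 in GSK 24 h), and GSK 24 h lies below them at GATA2 (at most 17.5 against 30.7 in vehicle and 29.1 in GSK 4 h).

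The order of the loci by tallest summit changed between lists. In vehicle it was GATA2, FOXA1, HOXB13, and each neighbour in that order differed beyond counting error. The fragments over the FOXA1 summit were 0.783 (0.655 to 0.934) of those over GATA2 and 2.08 (1.65 to 2.64) times those over HOXB13. In GSK 4 h FOXA1 was the lowest, at 0.675 (0.505 to 0.899) of HOXB13, and HOXB13 was at 0.911 (0.708 to 1.17) of GATA2. In GSK 24 h the same ratios were 0.598 (0.435 to 0.817) and 0.882 (0.678 to 1.15). HOXB13 and GATA2 thus did not differ beyond counting error in either GSK list, and FOXA1 lay below both, at 0.615 (0.462 to 0.814) of GATA2 in GSK 4 h and 0.528 (0.386 to 0.715) in GSK 24 h.

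Between the GSK lists the tallest summits, wherever they lay, differed by less than counting error at each locus. The ratio of 24 h to 4 h was 0.773 (0.552 to 1.08) at FOXA1, 0.872 (0.669 to 1.14) at HOXB13 and 0.901 (0.701 to 1.16) at GATA2. All 3 were under 1 with 1 inside the interval. Within a single region some differences were larger. The tallest GATA2 region of GSK 4 h, chr3:128207428-128207988, had a height of 38.7 in GSK 24 h, a ratio of 24 h to 4 h of 0.539 (0.401 to 0.719). At FOXA1 chr14:38056928-38057985 had a ratio of 0.601 (0.412 to 0.871), and at HOXB13 the region of the tallest summit, chr17:46823654-46825439, had 0.716 (0.540 to 0.946).

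**Figure D3:**
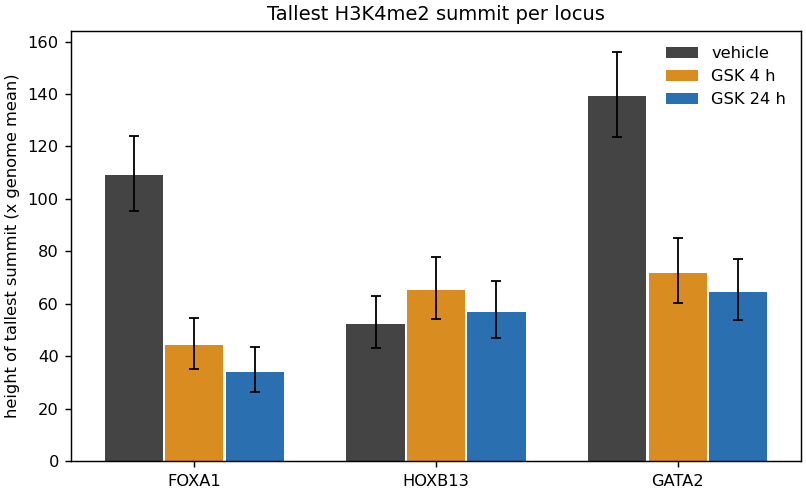
Height of the tallest summit of each locus in each list, as a multiple of the genome-wide mean, with bars from 0 and error bars that are 95% Poisson intervals of the fragment count (1 list per condition, no replicate error). FOXA1 stands at 109 in vehicle, 44.1 in GSK 4 h and 34.1 in GSK 24 h, GATA2 at 139, 71.7 and 64.6, and HOXB13 at 52.3, 65.4 and 57.0.

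Set against all regions matched between lists, with a height difference of 1.5-fold or more as the call, 5 of 16 member regions were lower in GSK 4 h, against 12.5% of 77261 matched regions. These were 3 of 4 at GATA2, 2 of 4 at FOXA1 and 0 of 8 at HOXB13. In GSK 24 h 2 of 11 were lower, against 12.6% of 78574, with 1 of 2 at GATA2, 1 of 2 at FOXA1 and 0 of 7 at HOXB13. No member was higher in either GSK list, against 23.8% of matched regions in GSK 4 h and 15.5% in GSK 24 h. The median height ratio of all matched regions was 1.18 in GSK 4 h and 1.11 in GSK 24 h, a shift of 0.23 and 0.15 on the log2 scale. The height ratio of the main FOXA1 region stood at percentile 4.51 in GSK 4 h and 5.17 in GSK 24 h among all matched regions, and that of the tallest GATA2 region at 4.63 and 7.01. The HOXB13 ratios lay between percentiles 34.1 and 71.5 in GSK 4 h and between 26.4 and 66.9 in GSK 24 h.

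A lower GSK height was the usual finding for tall vehicle regions. Matched regions in the tallest 10% of the whole vehicle list were compared, a comparison added after the values were seen. This class is chosen by vehicle height, which the ratio also divides by. In it, 71.8% were lower by 1.5-fold or more in GSK 4 h and 80.4% in GSK 24 h, with median height ratios of 0.483 and 0.355. The lower values of the main FOXA1 region (0.405 and 0.313) and of the tallest GATA2 region (0.409 and 0.384) were thus near those of tall regions in general. Of the members in that class, 4 of 9 were lower in GSK 4 h (3 of 4 at GATA2, 1 of 1 at FOXA1 and 0 of 4 at HOXB13) and 2 of 7 in GSK 24 h (1 of 2, 1 of 1 and 0 of 4). The 4 HOXB13 regions had vehicle heights of 45.1 to 52.3, just past the 44.1 that bounds this class, whereas the FOXA1 and GATA2 regions that were lower lay at 105 to 139. The 10-kb tag ratios of the tallest 10% had medians of 0.759 and 0.576, and those of HOXB13 in GSK 4 h lay between percentiles 71.9 and 99.8 of all matched regions. That ranking includes any region at the floor of the tag count in both lists, where the ratio is fixed at 1. The 99.8 belongs to the ratio of 1.89, whose windows have centres 1463 bp apart, and the next highest was 87.0.

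**Figure D4:**
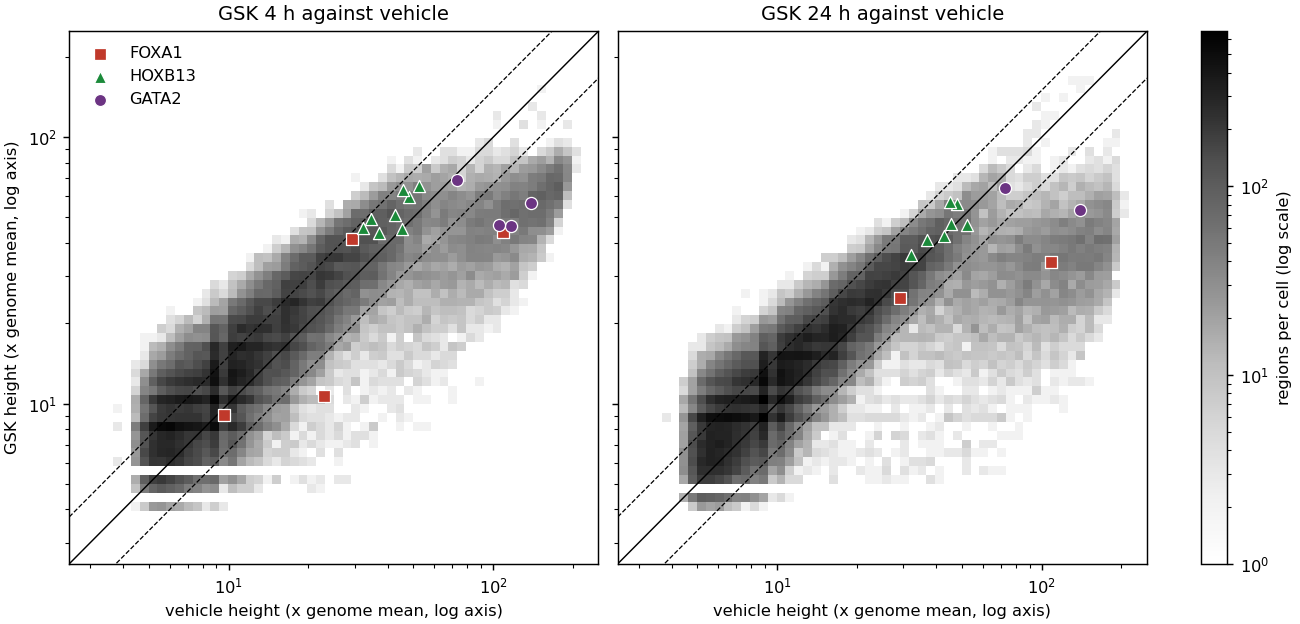
Height of each matched region in vehicle (horizontal log axis) and in GSK (vertical log axis, 4 h left and 24 h right), as a multiple of the genome-wide mean. Grey cells count all matched regions on a log scale, coloured marks are the members, the solid line is equality and the dashed lines are 1.5-fold. The tallest vehicle regions of FOXA1 and GATA2 lie under the lower dashed line, among other tall regions, and the HOXB13 marks lie between the dashed lines.

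The position of the summit also differed within matched regions. In GSK 4 h 5 of 16 member regions had a summit over 200 bp from the vehicle summit, against 27.6% of matched regions, and in GSK 24 h 4 of 11 did, against 25.8%. Both shares were near the background. The longest such distances at FOXA1 and GATA2 were those of the tallest vehicle regions, given above.

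The median fold enrichment of each locus ranked low although the summits were high. The median fold of HOXB13 regions stood at percentile 2.49, 1.16 and 2.43 of vehicle, GSK 4 h and GSK 24 h, while the median height stood at 87.7, 93.5 and 96.2. At GATA2 the median fold stood at 16.6, 0.117 and 1.70 and the median height at 96.1, 94.2 and 94.7. At FOXA1 the fold stood at 36.8, 10.8 and 8.41 and the height at 83.7, 87.3 and 83.5. The highest single fold ranked higher, at percentile 93.1, 57.3 and 28.7 at FOXA1, 95.1, 60.3 and 83.9 at GATA2, and at most 27.0 at HOXB13. The 10-kb tag count at the richest summit of each locus was at or above percentile 98.7 in each list, which is the background that the fold divides by.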

How the data were processed

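H3K4me2 ChIP-seq was measured in LNCaP cells, 2 replicates per group, and 1 region list was deposited per group. The submitters' processing notes name BWA 0.7.2-r351, SAMtools 0.1.18, MACS2 2.0.10.20131216 and hg19. Each region has a fold enrichment (a ratio), −log10 values of p and q and a display score, given by the authors' peak caller to both replicates together.

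From these values the whole-number fragment count at each summit, the genome-wide background and the tags in 10 kb were recovered, and the recovery was tested on simulated data. With a tolerance of 0.001 in −log10 p, whole counts were found for 99.998% of regions in vehicle (2 were not) and 100% in both GSK lists. The highest pileups (434, 364 and 431) lay near the limits of 442, 372 and 438 set by 1 tag per position and strand. Regions overlapping by 1 bp or more were matched. Intervals are Poisson or exact conditional binomial. Alternatives were stricter q-values, 1-kb merging, windows widened by 10 kb, other scalings and other overlaps. Members and lists were chosen with earlier results of these data known. The rule for named regions took the tallest and longest region of each list, regions past 1.5-fold in both GSK lists and, among regions missing from a list, the one with the highest fold. Other named regions were chosen after their values were seen. An hg19 annotation, other pioneer genes and cell type markers were not analysed here, and 1 motif searched is not reported here.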

Additional observations from a re-analysis of the deposited data

Results flagged for a closer look

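At 2 regions the GSK 4 h and GSK 24 h lists lay on opposite sides of vehicle. At the FOXA1 region chr14:38056928-38057985 the height ratio to vehicle was 1.42 in GSK 4 h and 0.852 in GSK 24 h. At the HOXB13 region chr17:46823654-46825439 it was 1.25 in GSK 4 h and 0.895 in GSK 24 h. With 1 list per condition, the difference between the times was not tested. With the fragment count divided by tags per kb, which makes no allowance for fragment length, the GSK 4 h values were 1.19 and 1.05.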

How the results depend on the processing

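No paired analysis was possible because the 2 replicates of a group were joined before deposit, so leaving out a replicate was not possible either. Of 114 alternative values, 75 were classed as the same and 39 as moved, and no value past 1.5-fold changed direction. Region counts and covered lengths have no interval here, so for them the class does not compare a move with an error. The tallest HOXB13 summit in GSK 24 h (1.09), whose interval holds 1, was 0.981 when centred on all matched regions and 0.895 at the vehicle region. Requiring a −log10 q of at least 10 left 5, 2 and 2 regions at FOXA1 in vehicle, GSK 4 h and GSK 24 h, 7, 7 and 7 at HOXB13, and 5, 3 and 3 at GATA2, where GSK had had more regions than vehicle. A −log10 q of at least 5 left 5, 4 and 5 at GATA2. Merging within 1 kb gave 5 at FOXA1 in GSK 4 h, 7, 7 and 7 at HOXB13, and 3 at GATA2 in vehicle and in GSK 24 h. The covered length over vehicle (FOXA1 0.805 and 0.698, HOXB13 1.16 and 1.08, GATA2 0.969 and 0.918) became 0.544 and 0.440, 1.33 and 1.22, and 0.619 and 0.564 at a −log10 q of 10. At 5 it became 0.576 for FOXA1 in GSK 24 h, and 0.710 and 0.780 for GATA2. Windows widened by 10 kb gave 0.721 for FOXA1 in GSK 4 h. With the deposited fold in place of height, the tallest regions had ratios of 0.478 (FOXA1, 24 h), 0.803 (HOXB13, 24 h), and 0.220 and 0.336 (GATA2), and 1 region was higher in GSK 4 h by 1.5-fold. The GATA2 region nearest the tallest vehicle summit gave 0.409 in GSK 4 h. Tags scaled to the median of all matched regions gave 0.596 for FOXA1 and 0.945 for HOXB13 in GSK 24 h, and the highest tags at any summit, chosen after seeing the data, gave 0.948 for GATA2 in GSK 4 h. Overlap of at least 50% of both regions lowered the shared shares to 44.0% and 36.0% of vehicle regions and to 42.3% and 37.5% of GSK regions, and a −log10 q of 10 in both lists raised that of GSK 24 h to 83.3%. The cause of these moves was not tested. Depth limits the smallest regions, and the tallest summits lie nearest the pileup limit.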

Other observations

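The outer part of the FOXA1 window held small regions with few tags around them. The region chr14:38091380-38092196 had a height of 23.0 in vehicle and 10.6 in GSK 4 h and was absent from GSK 24 h, and chr14:38085719-38086100 had heights of 9.60 and 9.03 and was likewise absent. In GSK 24 h only, regions were called at chr14:38035867-38036266 (height 7.12) and chr14:38084058-38084430 (9.66). At HOXB13, chr17:46822942-46823250 was called in both GSK lists, with heights of 34.0 and 33.6, and not in vehicle. At GATA2, the region of vehicle only, chr3:128205727-128206034, had a height of 60.9, with GSK regions 51 and 129 bp away.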
